A study of Homo sapiens with 9 samples.

Results

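The genes described here carry iron into the liver cell, store it, export it, sense it and release it from heme. The list held 10 genes, TF, TFRC, TFR2, SLC11A2, FTL, FTH1, SLC40A1, ACO1, IREB2 and HMOX1. A gene was taken with every probe set that the platform annotation paired with its symbol alone. By this rule 8 of the 10 genes were found, with 24 of the 54613 probe sets tested. FTH1, which encodes the heavy chain of ferritin, and IREB2, which encodes the second iron regulatory protein, had no probe set in the annotation used and were not analysed here. The study that reported these arrays does list a probe set of IREB2 among its changed genes, so IREB2 was on the array. The 8 genes were set against all 19775 genes of the array.

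RNA was measured on Affymetrix expression arrays in Huh7, a human line grown from a hepatocellular carcinoma. PGG is penta-O-galloyl-glucopyranoside, a plant polyphenol that was dissolved in phosphate-buffered saline (PBS). Cells were treated with 0.1 mg/mL PGG for 6 hours (3 arrays), with 0.1 mg/mL PGG for 48 hours (3 arrays), or with PBS alone for 48 hours (3 arrays). The 3 arrays of a group are labelled as biological replicates of this 1 line, with no word on separate cultures, so the p-values measure the spread between these arrays. The titles of the PBS arrays give 48 hours, whereas their descriptions give 0 hours of PGG. PBS was not analysed at 6 hours, so the effect of PGG at 6 hours and a difference in the length of treatment cannot be told apart in that comparison.

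Iron reaches hepatocytes bound to transferrin, the product of TF, which the liver itself secretes. Transferrin binds its receptor, the product of TFRC, and the iron freed in the endosome passes into the cytosol through the transporter encoded by SLC11A2. Iron that is not used is held in ferritin, built of the light chain FTL and the heavy chain, or leaves the cell through ferroportin, encoded by SLC40A1. Heme oxygenase, encoded by HMOX1, opens the heme ring and frees its iron. The protein encoded by ACO1 is an aconitase when it holds an iron-sulfur cluster. Without the cluster it binds iron-responsive elements, hairpins in the mRNAs of several of these genes, and lowers the translation of ferritin and ferroportin mRNA while it protects the mRNA of TFRC. An array measures only the amount of mRNA, and less RNA per cell and fewer cells of a kind cannot be told apart.

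The sequences of 4 genes are shown because these genes moved differently, SLC40A1 and ACO1 higher at both times, TFRC higher and FTL lower at 48 hours, and because each has 1 start site in the RefSeq table of the human genome (GRCh38.p14) used here. The table held 7 of the 10 genes, 6 of them among the 8 genes analysed. Each line gives the 100 bases before the start of the transcript, on the strand of the gene. Capitals mark GGGCGG, the GC box that Sp1 binds, ACGTG, the core of the element that hypoxia-inducible factors bind, and TATAAA, the TATA box, on either strand.
SLC40A1: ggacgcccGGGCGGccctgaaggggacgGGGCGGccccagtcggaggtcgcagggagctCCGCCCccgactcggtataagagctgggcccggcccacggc
ACO1: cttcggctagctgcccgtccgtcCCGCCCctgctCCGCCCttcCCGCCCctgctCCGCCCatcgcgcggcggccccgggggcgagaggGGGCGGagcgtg
TFRC: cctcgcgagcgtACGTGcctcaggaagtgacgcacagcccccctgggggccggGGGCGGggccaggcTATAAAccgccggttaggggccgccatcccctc
FTL: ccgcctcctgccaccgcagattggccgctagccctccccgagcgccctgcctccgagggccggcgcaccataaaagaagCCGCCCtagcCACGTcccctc
The stretches lie at chr2:189580787-189580886 (minus strand) for SLC40A1, chr9:32384543-32384642 (plus strand) for ACO1, chr3:196082091-196082190 (minus strand) for TFRC and chr19:48965209-48965308 (plus strand) for FTL. In the whole windows, from 250 bases before to 50 bases after the start, GGGCGG was found 3 times in SLC40A1, 6 times in ACO1, 3 times in TFRC and 2 times in FTL. Of all 35116 windows of the same length, 45% held GGGCGG. The core ACGTG lay 88 bases before the start of TFRC and, on the other strand, 11 bases before the start of FTL, and 21.4% of all windows held it. The box TATAAA began 33 bases before the start of TFRC, and 11.5% of all windows held it. The motifs do not overlap each other, and a match is a description of the letters, not of a bound site.

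FTL mRNA also holds an iron-responsive element, shown here only in part, since the sequence window ends at base 50. The line gives bases 27 to 50 of the transcript (chr19:48965335-48965358, plus strand), with the loop in capitals.
FTL element: ctcttgcttcaaCAGTGTttggac
The first letters of the loop, CAGTG, stood within the first 50 bases of 6.48% of all transcripts in the table, searched on the strand of the gene alone.

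Values are log2 values per probe set as normalized by the authors, so a difference of 1 is a doubling. A probe set is the group of short probes that reads 1 stretch of mRNA, and a name ending in _s_at or _x_at marks probes that can also bind related transcripts. Arrays were alike in scale, with medians of 5.16 to 5.20, and correlated at 0.993 to 0.998 within a group. The 9 measured hepatocyte markers, among them TF itself, averaged 11.84 to 11.90 on the arrays of PGG at 6 hours, 11.49 to 11.52 on those of PGG at 48 hours and 11.55 to 11.62 on those of PBS, and 0 of the 9 fell below the array median. Of 8 macrophage markers 6 or 7 were below it, of 9 endothelial and stellate cell markers 6 were, and of 5 erythroid markers 1 was. Single hepatocyte markers moved more than their average. Of the 9, 4 rose (TTR most, 1.54) and 0 fell at 6 hours. At 48 hours 4 rose (TTR most, 1.00) and 4 fell (APOB most, -1.99). Of the macrophage markers, 1 rose (VSIG4, 0.34) and 1 fell (CD14, -0.81) at 6 hours, and 0 rose and 1 fell (CD14, -1.37) at 48 hours. Of the endothelial and stellate cell markers, 1 rose (PDGFRB, 0.45) and 1 fell (COL1A1, -0.19) at 6 hours, and 2 rose (PDGFRB, 0.50, and PECAM1, 0.46) and 1 fell (COL1A1, -0.28) at 48 hours. Of the erythroid markers, 0 were called at 6 hours, and 1 rose (EPOR, 0.37) and 1 fell (HBB, -0.17) at 48 hours. The part of these markers in the results was not tested. For ACTB the 3′ minus 5′ gap of the control probes, which reflects how intact the RNA was, came to 1.13 to 1.23 with PGG at 6 hours, 2.14, 4.03 and 2.67 with PGG at 48 hours, and 0.96 to 1.57 with PBS. It moved with the 48 hour group and its part in the results at 48 hours was not tested. The second array of PGG at 48 hours stood apart, also in the gap of GAPDH, at 1.83 against 0.13 to 0.39 on the other arrays, and values without it are given where they matter.

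More of these probe sets differed from PBS at 48 hours of PGG than at 6 hours, as was also so over all probe sets. With limma and Benjamini-Hochberg adjustment over all probe sets at 0.05, 4 of the 24 probe sets rose and 0 fell at 6 hours, against a background of 12.2% of all probe sets higher and 12.5% lower. At 48 hours 13 of the 24 rose and 2 fell, against 18.8% higher and 20.2% lower over all probe sets. Between the times, 12 of the 24 were higher and 4 lower at 48 hours than at 6 hours, against 18% and 18.4%. Of the 24, 20 were brighter than the median of all probe sets, and brighter probe sets were called more often. Tested among the 27305 brighter probe sets alone, 12 of the 20 rose and 2 fell at 48 hours. Of all 27305, 8377 rose and 9130 fell. At 6 hours 4 of the 20 rose and 2 fell, against 6258 and 6100 of the 27305. The median difference of the 24 probe sets was 0.07 at 6 hours and 0.29 at 48 hours, where that of all probe sets was 0 and -0.02. Counted as genes, by the probe set with the highest mean, 3 of 8 rose and 0 fell at 6 hours (17.2% and 16.9% of all genes), and 6 of 8 rose and 1 fell at 48 hours (23.9% and 24.3% of all genes). The study set a mean difference of 1.5 and a q-value of 0.005 as its threshold in its methods, and a figure legend words the 1.5 as a fold. The mean differences that the study lists are on the log2 scale. Those of HAMP, a gene described below, are -3.59 and -1.71 there as here. Read as a log2 difference, 0 of the 24 probe sets passed at either time, where 0.734% of all probe sets passed at 6 hours and 4.12% at 48 hours. Read as 1.5-fold, 2 of the 24 passed at 6 hours, 1 each of SLC40A1 and ACO1, where 8.74% of all did. At 48 hours 6 passed by that reading, of SLC11A2, SLC40A1, HMOX1 and TFR2, where 20.3% of all did. These counts hold the 8 genes analysed and neither FTH1 nor IREB2. In the study's own list of genes past its threshold, a probe set of IREB2 stands higher at both times. Both comparisons use the same PBS arrays.

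**Figure D1:**
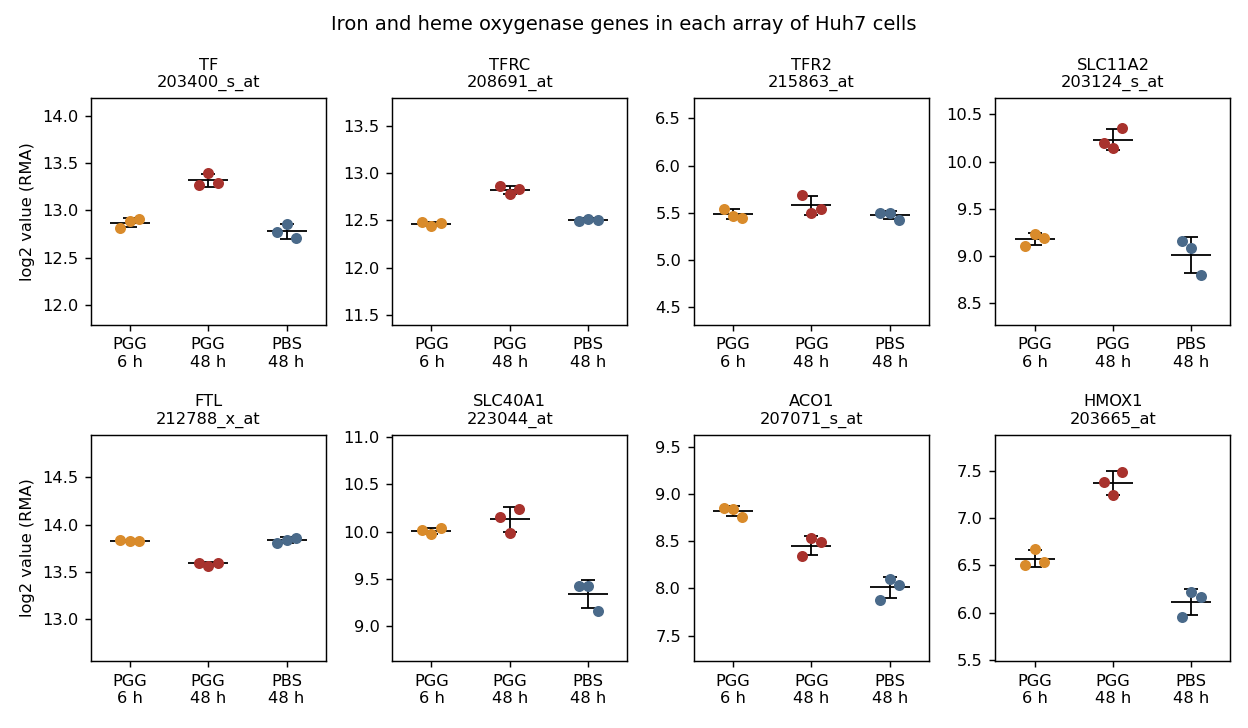
Log2 value (y axis, each panel spanning the same range of log2 units) of the highest-mean probe set of 8 genes on each of 9 arrays. Points are arrays, the wide bar is the mean and the error bar the SD of 3 arrays, for PGG 6 h, PGG 48 h and PBS 48 h. The 3 arrays of PGG 48 h lie above those of PBS for TF, TFRC, SLC11A2, SLC40A1, ACO1 and HMOX1 and below them for FTL. The share of all genes whose arrays separate from PBS in this way was not counted.

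HMOX1 mRNA was higher with PGG at both times and highest at 48 hours. Its single probe set, 203665_at, read 6.50, 6.67 and 6.54 with PGG at 6 hours, 7.38, 7.24 and 7.49 with PGG at 48 hours, and 5.95, 6.22 and 6.17 with PBS. The 3 groups did not overlap. HMOX1 rose by 0.46 ± 0.09 (SE, n = 3 arrays a group) at 6 hours (adjusted p = 0.0037) and by 1.26 ± 0.09 at 48 hours (adjusted p = 8.3e-07), which is 2.39 times the PBS level. PGG at 48 hours stood 0.80 above PGG at 6 hours (adjusted p = 3.5e-05). Without the second array of PGG at 48 hours the difference from PBS was 1.32. Every SE and interval here and below, figures included, is the moderated one of limma. The spread within groups is pooled over all 9 arrays and drawn toward that of all probe sets or genes. The n gives the arrays in a group.

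SLC11A2, the endosomal iron transporter also known as DMT1, rose at 48 hours in all of its probe sets. Its probe set 203124_s_at read 9.11, 9.23 and 9.19 with PGG at 6 hours, 10.20, 10.14 and 10.35 with PGG at 48 hours, and 9.16, 9.08 and 8.80 with PBS. The 48 hour arrays lay above all others, while the 6 hour arrays overlapped with PBS. The difference was 1.22 ± 0.10 (SE, n = 3) at 48 hours (adjusted p = 1.6e-06), 2.32 times PBS, and 0.16 at 6 hours (95% interval -0.05 to 0.38), which was not called. All 5 SLC11A2 probe sets rose at 48 hours, by 0.42 (210047_at) to 1.22, and 0 of the 5 were called at 6 hours. The dimmest of them, 237106_at, read 3.58, 3.35 and 3.15 with PGG at 48 hours against 2.82, 2.79 and 2.67 with PBS, a level near the bottom of the array. All 5 were also higher at 48 hours than at 6 hours, by 0.53 to 1.05.

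The genes of transferrin-bound uptake rose less, and at 48 hours only in part of their probe sets. TFRC, the main transferrin receptor, read 12.48, 12.44 and 12.47 with PGG at 6 hours, 12.86, 12.78 and 12.83 with PGG at 48 hours, and 12.49, 12.52 and 12.51 with PBS at probe set 208691_at. The 48 hour arrays stood above PBS by 0.32 ± 0.06 (moderated SE, n = 3, adjusted p = 0.00094), 1.25 times PBS. At 6 hours the TFRC difference was -0.04 (95% interval -0.17 to 0.08). Probe set 207332_s_at also rose at 48 hours, by 0.25 (adjusted p = 0.011). The other 3 TFRC probe sets were not called in any comparison. One of them, 237215_s_at, was too uneven to read a difference of that size, with 7.39, 6.01 and 6.83 for PGG at 48 hours against 8.11, 6.66 and 6.81 for PBS (95% interval of the difference -1.31 to 0.41). Averaged over its 5 probe sets, the TFRC difference at 48 hours was 0.05 and was not called.

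TF, which encodes transferrin, rose at 48 hours in its bright probe sets. At 203400_s_at it read 12.81, 12.89 and 12.91 with PGG at 6 hours, 13.27, 13.40 and 13.29 with PGG at 48 hours, and 12.77, 12.86 and 12.71 with PBS. The 48 hour difference was 0.54 ± 0.07 (SE, n = 3; adjusted p = 6.4e-05), and 214063_s_at gave 0.42 (adjusted p = 0.00026). Neither was called at 6 hours, at 0.09 and 0.08. The dimmer TF probe set 214064_at went another way. It read 7.02, 7.17 and 7.01 with PGG at 6 hours, 6.43, 6.56 and 6.71 with PGG at 48 hours, and 6.59, 6.90 and 6.24 with PBS. It rose by 0.49 at 6 hours (adjusted p = 0.028) and differed by -0.01 at 48 hours. That call at 6 hours was lost without PBS array 1 or 3 or without any 1 of the 3 arrays of PGG at 6 hours, with values of 0.32 to 0.52. The TF probe set 220109_at was not called.

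TFR2 encodes the second transferrin receptor, a liver protein that takes part in sensing transferrin iron. Its 3 probe sets differed in pattern. Probe set 210215_at read 4.63, 5.12 and 5.17 with PGG at 6 hours, 6.15, 5.92 and 6.08 with PGG at 48 hours, and 5.30, 5.53 and 5.24 with PBS. It rose by 0.69 ± 0.14 (SE, n = 3) at 48 hours (adjusted p = 0.0018) and stood 1.08 above PGG at 6 hours (adjusted p = 7.6e-05). At 6 hours its 3 arrays lay below those of PBS, at -0.38 (adjusted p = 0.07, not called), as did those of 207883_s_at, at -0.27 (adjusted p = 0.053, not called). The third, 215863_at, read 5.45 to 5.54 with PGG at 6 hours, 5.50 to 5.69 with PGG at 48 hours and 5.43 to 5.50 with PBS and was not called in any comparison. As the probe set with the highest mean, 215863_at stands for TFR2 among the 8 genes, so TFR2 is the 1 gene counted as not called at 48 hours.

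**Figure D2:**
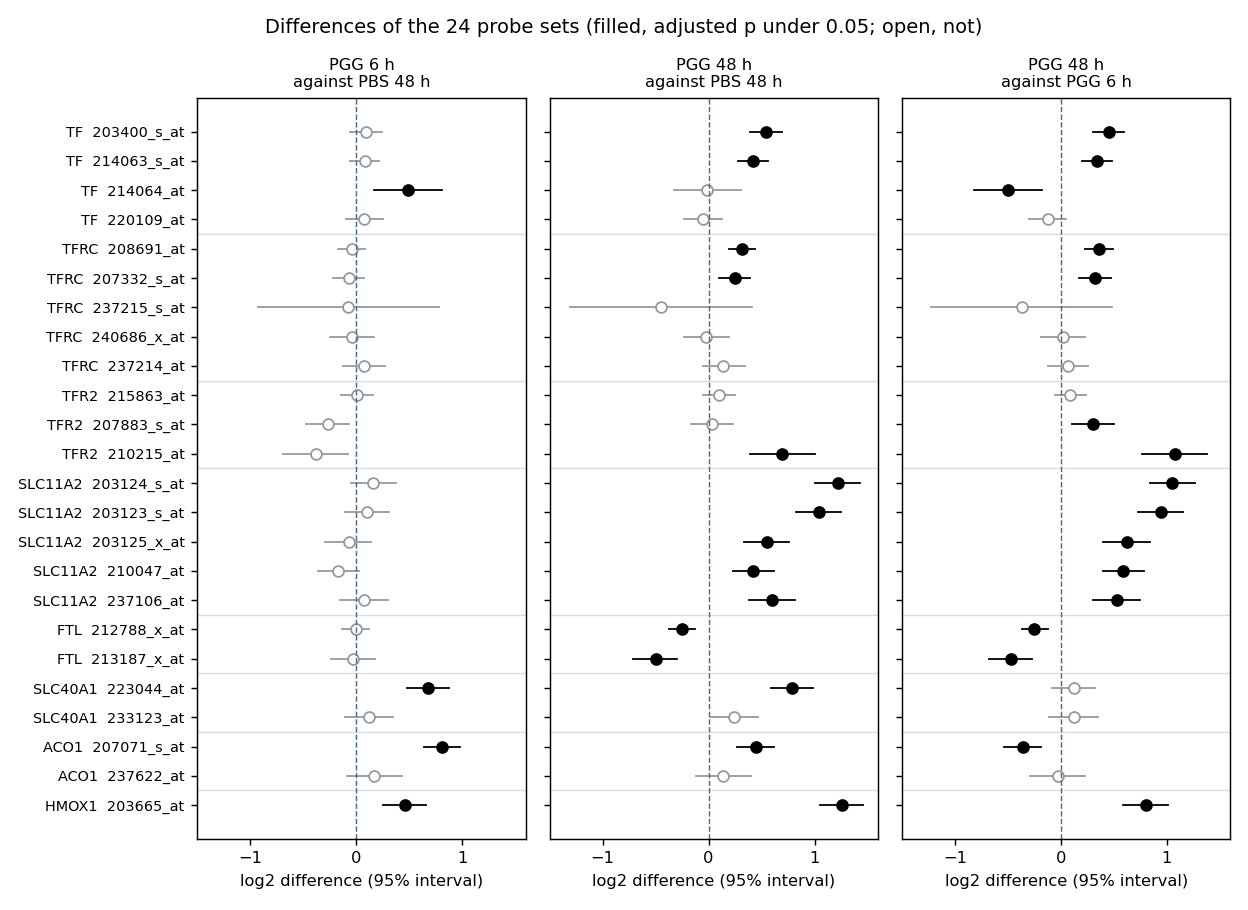
Log2 difference (x axis) with its 95% interval for 24 probe sets (rows, grouped by gene) in 3 comparisons. Filled points have an adjusted p under 0.05 from limma. All 5 SLC11A2 probe sets stand above 0 at 48 hours and both FTL probe sets below it, while the probe sets of TF, TFRC and TFR2 split between called and not called.

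FTL, the ferritin light chain, fell at 48 hours in both of its probe sets. At 212788_x_at it read 13.84, 13.83 and 13.83 with PGG at 6 hours, 13.60, 13.56 and 13.60 with PGG at 48 hours, and 13.81, 13.84 and 13.86 with PBS. The 48 hour arrays lay below all others. The difference from PBS was -0.25 ± 0.06 (moderated SE, n = 3, adjusted p = 0.004), 0.841 times PBS. The SDs of the groups were smaller than this SE, at 0.01 with PGG at 6 hours, 0.02 with PGG at 48 hours and 0.03 with PBS. The other FTL probe set, 213187_x_at, read 13.52, 13.53 and 13.49 with PGG at 6 hours, 13.17, 12.80 and 13.15 with PGG at 48 hours, and 13.54, 13.53 and 13.56 with PBS. It fell by 0.50 at 48 hours (adjusted p = 0.001), and fell by 0.38 (adjusted p = 0.00054) without the second array of PGG at 48 hours, which holds its lowest value. At 6 hours the FTL differences were 0 (95% interval -0.13 to 0.12) and -0.03. FTL is among the brightest signals of the array, at percentiles 99.98 and 99.87 of all probe sets, and both of its probe sets are of the kind that can bind related transcripts. The element printed in part above lies in this mRNA.

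SLC40A1, which encodes the iron exporter ferroportin, was already higher at 6 hours. At 223044_at it read 10.02, 9.98 and 10.04 with PGG at 6 hours, 10.16, 9.99 and 10.24 with PGG at 48 hours, and 9.42, 9.43 and 9.16 with PBS. Both PGG groups lay above PBS and overlapped with each other. The rise was 0.68 ± 0.09 (SE, n = 3) at 6 hours (adjusted p = 0.00023) and 0.79 ± 0.09 at 48 hours (adjusted p = 2.7e-05). Between the times it differed by 0.12 (95% interval -0.08 to 0.32), which was not called. The dimmer SLC40A1 probe set 233123_at gave 0.12 at 6 hours and 0.24 at 48 hours and was not called.

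ACO1, the gene of the cytosolic aconitase that doubles as an iron regulatory protein, was higher at 6 hours than at 48 hours. At 207071_s_at it read 8.85, 8.84 and 8.76 with PGG at 6 hours, 8.34, 8.53 and 8.49 with PGG at 48 hours, and 7.88, 8.10 and 8.04 with PBS. None of the 3 groups overlapped. ACO1 rose by 0.81 ± 0.08 (SE, n = 3) at 6 hours (adjusted p = 2.4e-05) and by 0.45 ± 0.08 at 48 hours (adjusted p = 0.00078), and PGG at 48 hours stood at -0.36 relative to PGG at 6 hours (adjusted p = 0.0034). Averaged over both ACO1 probe sets that difference between the times was -0.20 and was not called. The dim ACO1 probe set 237622_at, with group means of 4.31 to 4.48, was not called.

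The 8 genes thus fell into different time courses. Between PGG at 48 hours and PGG at 6 hours, 4 of the 8 genes were higher (TFRC, TF, SLC11A2 and HMOX1) and 2 lower (FTL and ACO1), against 23.6% and 23.4% of all genes, while SLC40A1 and TFR2 were not called. With the mean of all probe sets of a gene, 3 were higher and 1 lower, and TFRC, TF and ACO1 were no longer called. Over the 9 arrays the genes whose centred values lay nearest to those of TFRC were AP3S1, C1orf50 and FOXJ2, with root mean square differences of 0.031, 0.036 and 0.037 log2 units among 19774 genes. Nearest to HMOX1 were PML, ULK1 and SEC22A, at 0.066, 0.069 and 0.069. PML differed from PBS by 0.47 at 6 hours and 1.36 at 48 hours, where HMOX1 differed by 0.46 and 1.26. PML was picked for nearness over these same arrays, so like differences follow from that choice.

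Around these genes, 75 of 84 other listed genes of iron and heme handling were measured, each by its highest-mean probe set and tested over all 19775 genes. At 6 hours 18 rose, 23 fell and 34 were not called. At 48 hours 20 rose, 28 fell and 27 were not called. Over all genes 17.2% rose and 16.9% fell at 6 hours, and 23.9% rose and 24.3% fell at 48 hours. The counts of the single lists below are to be read beside these same shares. The median difference was -0.05 at 6 hours and 0.01 at 48 hours, where all genes had 0.01 and -0.02. Targets of NRF2 that are not iron or heme genes were listed apart.

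In the import list 3 of 9 genes rose and 1 fell at 6 hours, and 3 rose and 4 fell at 48 hours. Without the second array of PGG at 48 hours, 2 rose and 4 fell at that time. STEAP3, the reductase that prepares endosomal iron for SLC11A2, rose at 6 hours, at 0.74 (adjusted p = 5.7e-06), and fell at 48 hours, at -1.29 (adjusted p = 1.3e-08), the time at which SLC11A2 rose. STEAP1, of the same family, rose by 0.30 and then fell by 0.86 against PBS. MCOLN1, a cation channel of late endosomes and lysosomes, rose by 1.19 at 48 hours. Among 4 measured genes of ferritin loading and turnover, NCOA4, which delivers ferritin to lysosomes, rose by 0.57 at 6 hours and 0.40 at 48 hours. PCBP2, an iron chaperone for ferritin, fell by 0.41 at each time, and HERC2, a ubiquitin ligase for NCOA4, fell by 0.28 and fell by 0.98. That list had 1 gene higher and 2 lower at both times.

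Of 5 other genes around the iron regulatory proteins, 2 rose and 3 fell at 6 hours, and 1 rose and 3 fell at 48 hours. FBXL5, the iron-sensing adaptor that marks the second regulatory protein for degradation, fell at 6 hours, at -0.91 (adjusted p = 6.5e-07), and at 48 hours, at -0.27 (adjusted p = 0.0038). Of the ligase subunits that work with it, RBX1 rose by 0.95 at 6 hours, SKP1 rose by 0.31, and CUL1 fell at both times (-0.34 and -0.56).

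The largest fall of the export list at 6 hours was that of HAMP, which encodes hepcidin, the liver hormone that removes ferroportin from the cell surface. HAMP read 5.49, 5.98 and 6.03 with PGG at 6 hours, 7.79, 7.55 and 7.80 with PGG at 48 hours, and 9.72, 9.26 and 9.30 with PBS, which gives differences of -3.59 (6 hours, adjusted p = 1.3e-08) and -1.71 (48 hours, adjusted p = 1.1e-06). CP, the ferroxidase ceruloplasmin, fell at both times, with -0.32 and -2.19. SMAD4, which carries the signal from bone morphogenetic proteins to HAMP, rose by 0.28 and 1.11, and the receptor ACVR1 rose by 0.40 at 48 hours. Of the same signalling route, BMP6, a ligand, fell at 6 hours (-0.62), and SMAD1, a partner of SMAD4, fell at 48 hours (-0.99). Of 9 measured genes, 1 rose and 4 fell at 6 hours, and 2 rose and 3 fell at 48 hours.

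At 48 hours the first enzymes of heme synthesis rose and the last enzyme fell. ALAS1, the first and rate-limiting enzyme in the liver, read 10.01, 10.03 and 10.05 with PGG at 6 hours, 9.98, 10.20 and 10.04 with PGG at 48 hours, and 8.58, 8.68 and 8.72 with PBS, a rise of 1.37 and 1.41. FECH, which inserts iron into the ring as the last step, read 9.53, 9.57 and 9.65 with PGG at 6 hours, 7.54, 7.65 and 7.52 with PGG at 48 hours, and 9.39, 9.43 and 9.41 with PBS. FECH fell by 1.84 at 48 hours (adjusted p = 3.6e-10) and was not called at 6 hours, at 0.17. CPOX, a mitochondrial enzyme of the later steps, rose by 1.39 and 0.80, ALAD rose by 0.35 and 0.97, and UROS fell by 1.23 at 48 hours. Of the 7 measured genes, 4 rose and 0 fell at 6 hours, and 3 rose and 2 fell at 48 hours.

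**Figure D3:**
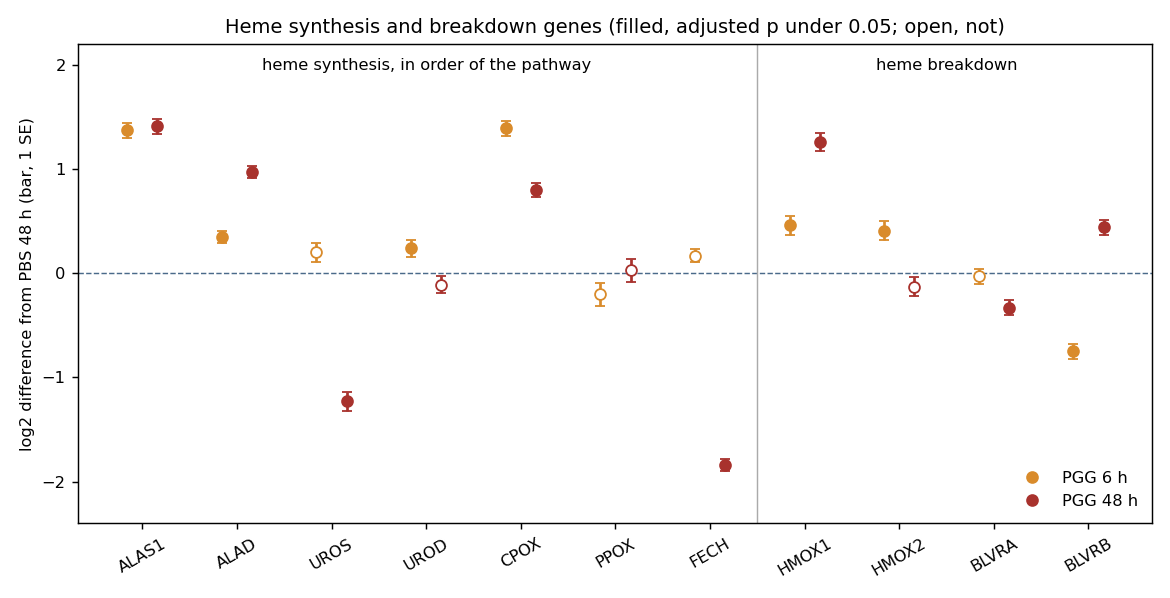
Log2 difference from PBS 48 h (y axis; bar, 1 SE) of heme synthesis genes in pathway order and of heme breakdown genes, at PGG 6 h and PGG 48 h. Filled points have an adjusted p under 0.05 over all genes. At 48 hours ALAS1 stands at 1.41 and HMOX1 at 1.26, while FECH stands at -1.84.

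Among 11 genes of heme breakdown, binding and transport outside HMOX1, 2 rose and 3 fell at 6 hours, and 3 rose and 3 fell at 48 hours. Without the second array of PGG at 48 hours, 4 rose and 3 fell at that time. HMOX2, the second heme oxygenase, rose by 0.41 at 6 hours and was not called at 48 hours, at -0.13. BLVRB, a biliverdin reductase, fell at 6 hours (-0.75) and rose at 48 hours (0.44), while BLVRA, the other reductase, was not called at 6 hours and fell by 0.33 at 48 hours. HP, which encodes the hemoglobin-binding haptoglobin, rose by 1.93 at 6 hours alone, and was -0.15 at 48 hours. FLVCR2, a membrane transporter first described as a heme importer, rose by 1.13 at 48 hours, and SLC48A1, which moves heme out of the lysosome, fell by 0.21 and fell by 0.60.

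Of 5 measured regulators of HMOX1, 0 rose and 4 fell at 6 hours, and 2 rose and 0 fell at 48 hours. BACH1, the heme-binding repressor of HMOX1, fell at 6 hours, at -0.40 (adjusted p = 0.00058), and rose at 48 hours, at 1.02 (adjusted p = 7.5e-08), while HMOX1 rose at both times. MAFF, a small Maf protein that pairs with BACH1 or NRF2, rose by 1.68 at 48 hours. MAFG fell by 0.81 at 6 hours, and NFE2L2, the gene of NRF2 itself, fell by 0.45 at 6 hours. Both were not called at 48 hours. Of 13 other NRF2 targets, 1 rose and 1 fell at 6 hours, and 1 rose and 11 fell at 48 hours, with medians of -0.09 and -0.84. SLC7A11, the cystine transporter, fell by 1.35 and fell by 1.55. NQO1, a quinone reductase, fell by 1.32 at 48 hours, and PGD, of the pentose phosphate pathway, rose by 0.24 and then fell by 0.47 against PBS. The 1 rise at 48 hours was that of GCLC, a subunit of the enzyme that starts glutathione synthesis, at 0.22 (adjusted p = 0.035), and without the second array of PGG at 48 hours 0 of the 13 rose and 11 fell. HMOX1, a target of NRF2 as well, moved the other way from most of this list at 48 hours.

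The genes of iron-sulfur cluster assembly moved both ways. Of 13 measured mitochondrial genes, 4 rose and 4 fell at 6 hours, and 4 rose and 7 fell at 48 hours. SLC25A37, the mitochondrial iron importer mitoferrin, fell by 1.05 and fell by 1.12. NFS1, the cysteine desulfurase, rose at 6 hours (0.73) and fell at 48 hours (-0.73), its partner LYRM4 fell by 1.04 at 48 hours, and GFER rose by 0.70 at 6 hours. Of 8 cytosolic genes, 1 rose and 2 fell at 6 hours, and 0 rose and 3 fell at 48 hours, among them CIAPIN1, which fell by 1.10, and NUBP1, which fell by 0.55. Without the second array of PGG at 48 hours, 1 rose and 3 fell at that time. CIAO1 rose by 0.41 at 6 hours. Of 5 measured genes whose mRNAs hold or may hold an iron-responsive element, 0 rose and 1 fell at 6 hours, and 1 rose and 2 fell at 48 hours. CDC42BPA, a kinase gene, fell by 0.59 and fell by 0.61, PFN2, which encodes a profilin, fell by 1.38 at 48 hours, and EPAS1, a hypoxia-inducible factor, rose by 0.16 at 48 hours (adjusted p = 0.044). The rise of EPAS1 was lost without the second array of PGG at 48 hours, with 0 of 5 higher and 2 lower.

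**Figure D4:**
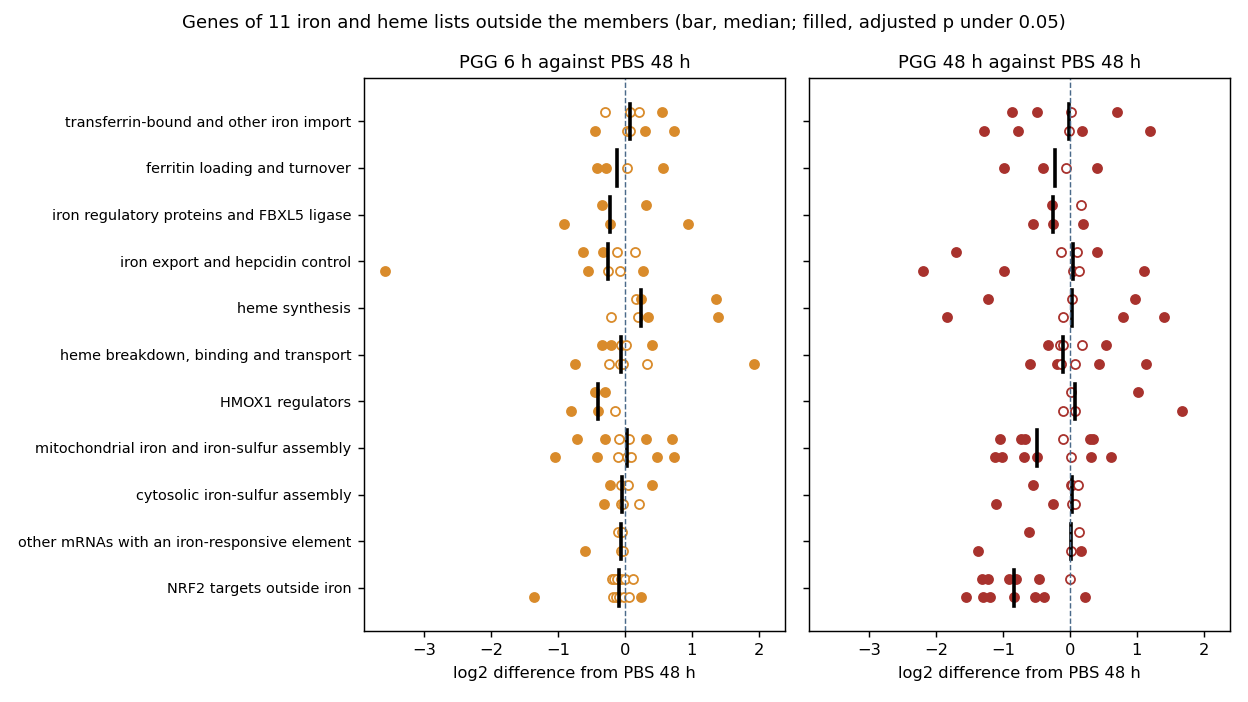
Log2 difference from PBS 48 h (x axis) of the measured genes of 11 lists (rows), at PGG 6 h and PGG 48 h. Each point is a gene, filled at an adjusted p under 0.05, and the black bar is the median of the list. The median of the NRF2 targets is -0.09 at 6 hours and -0.84 at 48 hours, and HAMP is the point at -3.59.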

How the data were processed

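RMA, run in Affymetrix Expression Console (version not given in the sources used here), is named in the submitters' processing notes and the methods. The values that the authors deposited are log2 intensities, 1 per probe set, with 2 decimals. From the deposited log2 values, group means over the 9 arrays were fitted in R 4.3.3 with limma 3.58.1 (lmFit, eBayes) and compared, with Benjamini-Hochberg adjustment over 54613 probe sets, after 62 control probe sets had been left out, or over 19775 genes. All value columns were used. Genes were named from the platform annotation, in which 41091 probe sets had 1 symbol, 1801 several and 11721 none. A gene in the lists was read by whichever of its probe sets had the highest mean. The SEs and intervals come from this fit and are moderated as its p-values are. The fit was tested on simulated data. Arrays hold no counts, and the 3 arrays per group limit the precision.

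The members, gene lists, motifs and tests were chosen with earlier results of these data known. Named were every member, up to 2 rises and 2 falls of each list by size at an adjusted p under 0.05 in either comparison with PBS, and the 3 genes nearest in pattern to TFRC and HMOX1. ALAD, HMOX2, BLVRA, BMP6, SMAD1 and the cell type markers were named after their values were seen. The t-test of the methods was run as an alternative. Sequences are from RefSeq (GRCh38.p14). The array files name no genome build, so no positions of probe sets are given.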

Additional observations from a re-analysis of the deposited data

Results flagged for a closer look

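For 6 of the 8 genes the values differed between PGG at 48 hours and PGG at 6 hours by a direct test, with limma and adjustment over all genes, of which 23.6% were higher and 23.4% lower at 48 hours. PBS was measured at 48 hours alone, so a change in the effect of PGG and the 42 hours between the groups cannot be told apart. With the mean of all probe sets of a gene 4 of the 8 were called. SLC11A2 differed by 1.05 (adjusted p = 1.2e-06), HMOX1 by 0.80 (adjusted p = 9.3e-06), TF by 0.45 (adjusted p = 1e-04) and TFRC by 0.36 (adjusted p = 0.00016), all higher at 48 hours. ACO1 differed by -0.36 (adjusted p = 0.0016) and FTL by -0.25 (adjusted p = 0.0024), both lower at 48 hours. In all 6 genes the 3 arrays of one time lay on one side of the 3 arrays of the other. These 6 genes were picked by that same test, so the separation adds nothing to it. The share of all genes that separate in this way was not counted. Single outlying values were not tested for, since each group had 3 arrays.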

How the results depend on the processing

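No count of members at an adjusted p under 0.05 left the range of 1.5 times its main value under any alternative run, which covered array scaling, quantile normalization, a filter on dim probe sets, the variance model, the groups fitted, the replicate block, the t-test of the methods and, for genes, the mean of all probe sets. Leaving out 1 array at a time gave 3 to 4 probe sets at 6 hours (4 in all arrays), 15 to 16 at 48 hours (15) and 14 to 16 between the times (16), 3, 7 and 6 genes in every case, and 0 past the study threshold. With 1.5 read as a fold, added after the counts were seen, 8 passed over both times. One difference changed sign: TFR2 at 6 hours was -0.21 (adjusted p = 0.021) as the mean of its probe sets, against 0.01 by its brightest. With this mean TFRC at 48 hours (0.05), and TFRC (0.08), TF (0.04) and ACO1 (-0.20) between the times, were no longer called, while TFR2 was called at 48 hours (0.28) and between the times (0.49). The t-test of the methods called 3, 14 and 13 probe sets in the 3 comparisons. Over all 54613 probe sets it called 5445 higher and 5268 lower at 6 hours and 7428 and 7796 at 48 hours. Between the times it called 7864 and 8049. The filter on dim probe sets called 6, 14 and 15 of 20, with TFR2 207883_s_at and 210215_at lower at 6 hours. Of the 27305 probe sets that it kept, 6258 were higher and 6100 lower at 6 hours. At 48 hours these were 8377 and 9130, and between the times 8218 and 8684. Same-numbered arrays of different groups showed no clear pairing (correlations of -0.09 to 0.16, 2 of 9 over 0.1, own number closest in 8 of 18 matches). With 3 arrays a group, weak pairing cannot be told from none. The replicate block left 4, 15 and 16 probe sets called. Values called in neither of 2 settings were given no direction. Without the second array of PGG at 48 hours, an alternative added after its ACTB and GAPDH controls were seen, 6 of the 11 list counts at 48 hours did not move and 5 moved by 1 gene.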
